A study of Caenorhabditis elegans with 2 samples.

Results

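The G1 cell cycle regulators are 7 protein-coding genes of Caenorhabditis elegans, listed by function: the inhibitors cki-1 and cki-2, the cyclins cyd-1 and cye-1, the kinases cdk-4 and cdk-2, and lin-35, the worm counterpart of the retinoblastoma protein. They are 7 of 19973 protein-coding genes annotated on the nuclear chromosomes. Binding of NHR-6, the worm's NR4A nuclear receptor, was measured around them by chromatin immunoprecipitation and sequencing (ChIP-seq) of whole L4 larvae, with both sexes pooled. All animals were of strain OP90, which carries the allele unc-119(ed3) on chromosome III and the transgene wgIs90 with eGFP-tagged nhr-6; the promoter of the transgene is not stated, and the labels give the age as unknown. There was 1 group with 2 biological replicates and no comparison strain, so the data describe where peaks lie and how the replicates rank them. Whole animals were used, so a peak does not say in which cells the protein was bound, and the spermatheca was not measured apart from other tissues.

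Entry into the cell cycle in larvae is set by a pathway shared with mammals. Cyclin D with CDK-4 counteracts LIN-35, which with the E2F factors holds back genes needed for DNA synthesis. Cyclin E with CDK-2 then drives the start of S phase, and CKI inhibitors of the Cip/Kip family block these kinases and keep precursor cells at rest. NHR-6 is needed for the development of the spermatheca, the sperm store where oocytes are fertilised, and for the divisions of its precursor cells, which is the reason for looking at this pathway.

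Peaks were read in 4 lists of build ce11: a list thresholded for reproducibility with 2720 peaks, a relaxed list of the pooled replicates with 30000, and a relaxed list of each replicate with 26773 and 30000 on the nuclear chromosomes. Each peak has a signal, the authors' own value on a scale that is not stated, and signals ran from 27.5 to 1433 in the thresholded list and from 4.13 to 1433 in the pooled one. Ranks start at 1 for the highest signal within a list, and replicates are compared by rank. Their signals are printed for reference only, because separate lists are not shown to share a scale. A peak was counted by its summit, in the promoter window (the 1000 bp before a gene's annotated start and the 200 bp after it), in an intron, or further out to 5 kb upstream.

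Thresholded peaks lay in the promoter windows of 4 of the 7 genes: cye-1, lin-35, cki-1 and cyd-1. That is 57.1% (Wilson 95% interval 25.0 to 84.2%, for counting of genes only), beside 10.5% of all protein-coding genes. The members were chosen with earlier results of these data known. cki-2 had a thresholded peak further upstream, and cdk-4 and cdk-2 had none in any of the regions. Counting the promoter window, introns and 5 kb upstream together, 5 of 7 genes had a thresholded peak, beside 21.7% of all genes. The 5 genes held 7 such peaks, 4 in promoter windows, 2 in introns and 1 upstream. Intronic ones were in 2 of the 7 genes, beside 2.29% of genes with an intron, and upstream ones beyond the promoter window in 1 of 7, beside 11.6%. The introns of a member sum to between 57 bp in cki-1 and 10515 bp in cyd-1, and in 6 of the 7 to more than the median of 765 bp over all genes with an intron.

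Relaxed peaks were common throughout the genome. In the pooled list all 7 members had a summit in the promoter window, beside 41.0% of all genes, and all 7 had one in some region, beside 68.4%. Introns held a pooled summit in 5 members, beside 24.1% of genes with an intron, and the stretch beyond the promoter window in 5, beside 56.1%. In replicate 1 the promoter window held a summit in 5 members, without cdk-2 and cki-2, beside 38.8% of all genes. In replicate 2 it did so in all 7, beside 41.9%. Some region held a summit of all 7 members in each replicate, beside 71.0% of all genes in replicate 1 and 75.2% in replicate 2. In all, 39 pooled peaks fell to the members, of which 20 overlapped a peak in both replicates, 16 in 1 replicate only and 3 in neither. The same shares over all pooled peaks are not given. Neighbouring pooled peaks could match the same replicate peak, as did those 1788 and 1996 bp downstream in cyd-1. All 7 thresholded peaks were matched in both, as were 98.6% of all thresholded peaks.

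**Figure D1:**
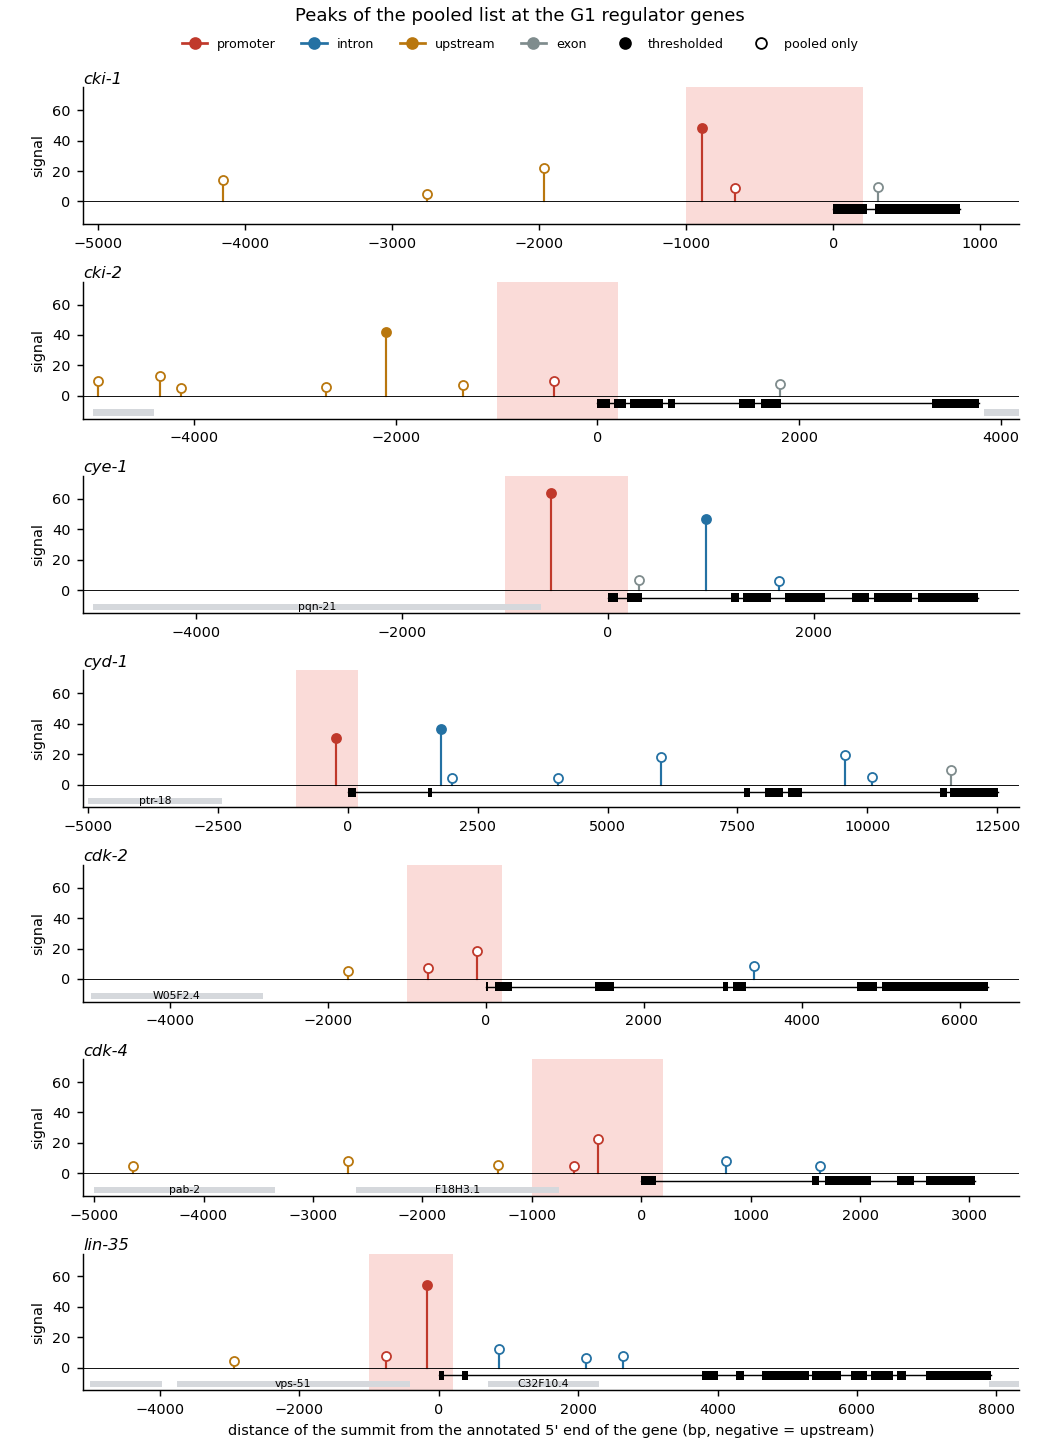
Pooled peaks at the 7 genes. Each panel plots the authors' signal (vertical axis) against the distance of the summit from the gene's annotated 5′ end in bp (horizontal axis); stems are peaks, filled where they are in the thresholded list, black boxes are exons, grey bars neighbouring protein-coding genes and the shaded band the promoter window. The highest stems stand in the promoter windows of cye-1 (64.0), lin-35 (54.6) and cki-1 (48.3), while those in the windows of cdk-4 and cdk-2 are open and reach 22.6 and 18.3.

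The inhibitors come first. cki-1 (WBGene00000516) lies at chrII:7811240-7812105 on the plus strand and encodes the main inhibitor that holds larval precursor cells at rest. It is preceded by 16917 bp without a protein-coding gene, against a median of 936 bp over all genes. Its thresholded summit lay 893 bp upstream in intergenic sequence, with a pooled signal of 48.3 (rank 808). The matching peak ranked 1481 in replicate 1, with a signal of 20.1, and 365 in replicate 2, with a signal of 34.1. The replicate summits lay 2 and 16 bp from the pooled one. It is among the strongest 2720 peaks of both replicates. All thresholded peaks had passed a threshold for reproducibility, and the share of them that rank so in both replicates is not given.

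Further upstream of cki-1 the peaks were weaker. A pooled summit 1965 bp upstream, inside the noncoding RNA gene T05A6.15, had a signal of 21.8 (rank 3950), below the lowest thresholded signal of 27.5, and ranked 6659 in replicate 1 and 2759 in replicate 2. Another 4150 bp upstream had a signal of 13.8 (rank 7306) and ranked 8397 in replicate 1 but 22680 in replicate 2. The replicates therefore placed the peak at 893 bp first among those upstream of the gene in both lists. The single intron of cki-1, of 57 bp, held no summit in any list, and 1 pooled summit lay in an exon with a signal of 9.46.

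cki-2 (WBGene00000517), the second inhibitor, follows cki-1 in the same direction at chrII:7816499-7820281, with 4393 bp between them. Its thresholded summit lay 2093 bp upstream of cki-2 and 2301 bp past the end of cki-1, with a pooled signal of 41.8 (rank 1158). It ranked 2372 in replicate 1 (signal 15.8) and 461 in replicate 2 (signal 31.6), among the strongest 2720 of both. The noncoding RNA gene nearest to the pooled summit, T05A6.11, was 75 bp away. The replicate 2 summit was at the pooled position, but that of replicate 1 lay 94 bp from it, inside T05A6.11. In the promoter window of cki-2 itself the only pooled summit lay 431 bp upstream with a signal of 9.56 (rank 11947). It ranked 6769 in replicate 2 and had no matching peak in replicate 1.

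Other relaxed peaks between the inhibitor genes had pooled signals from 4.98 to 13.0, and that in the cki-1 exon also falls within 5 kb of cki-2. The introns of cki-2 held 1 summit in each replicate list and none in the pooled one. The strongest peaks of the inhibitor genes thus lay 893 and 2093 bp upstream of the annotated starts, and which gene the peak between them concerns was not tested.

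The sequences under the thresholded summits of the inhibitor genes are shown because these are the strongest peaks of the pair. Each runs from 50 bp before to 50 bp after the summit, plus strand of WBcel235 (ce11), read from the RefSeq copy of that assembly, and capitals would mark a match to one of the fixed motifs, of which neither holds any.
cki-1 promoter, chrII:7810297-7810397: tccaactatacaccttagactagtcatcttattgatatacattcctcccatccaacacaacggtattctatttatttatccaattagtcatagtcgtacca
cki-2 upstream, chrII:7814356-7814456: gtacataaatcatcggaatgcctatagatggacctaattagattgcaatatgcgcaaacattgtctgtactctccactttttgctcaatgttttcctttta

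Both windows were poor in G and C for this list. GC content was 34.7% at the cki-1 summit and 35.6% at the cki-2 summit, against a mean of 45.3% ± 7.88 (SD, n = 2720 thresholded peaks). Of all thresholded summits, 91.9% had a GC content at least as high as that of cki-1 and 89.4% one at least as high as that of cki-2.

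Among the cyclins, cyd-1 (WBGene00000870) encodes cyclin D, the partner of CDK-4, at chrII:12980591-12993117. It had thresholded peaks both in the promoter window and in an intron, and the replicates disagreed over the first. The promoter summit lay 241 bp upstream in intergenic sequence with a pooled signal of 30.4 (rank 2282), close to the end of the thresholded list. Replicate 1 ranked it 805, with a signal of 25.8, the highest rank of any member promoter in that replicate. Replicate 2 ranked it 7214, with a signal of 7.96 and a summit 120 bp from the pooled one. The larger rank is 8.96 times the smaller; of 2681 thresholded peaks matched in both replicates, 8.84% had a ratio at least as large, and the median ratio was 2.34.

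The intronic peak of cyd-1 was ranked more alike. Its summit lay 1788 bp downstream of the annotated 5′ end, with a pooled signal of 36.5 (rank 1573), and ranked 2547 in replicate 1 (signal 15.1) and 1348 in replicate 2 (signal 20.5). Both ranks are within the strongest 2720, and their ratio of 1.89 was below the median. The 6014 bp intron that holds it is the longest of the gene. Further pooled summits 6018 and 9577 bp downstream had signals of 18.0 and 19.2 and were ranked far apart. The first was at 2221 in replicate 1 and 16881 in replicate 2, and the second at 17863 in replicate 1 and 3360 in replicate 2. A shorter transcript starts 7632 bp further in, and counting the 5′ ends of all transcripts added no thresholded promoter peak to any member.

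The sequences at both thresholded cyd-1 summits are given in the same form. The capitals in the intronic window mark the nuclear receptor core AGGTCA on the minus strand, read there as its reverse complement.
cyd-1 promoter, chrII:12980300-12980400: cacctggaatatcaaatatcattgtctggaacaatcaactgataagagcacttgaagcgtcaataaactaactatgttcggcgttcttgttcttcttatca
cyd-1 intron, chrII:12982329-12982429: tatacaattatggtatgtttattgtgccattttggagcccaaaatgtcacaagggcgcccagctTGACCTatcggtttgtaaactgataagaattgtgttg

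AGGTCA was in 3.71% of the 2720 thresholded windows of this length and in 3.09% of the 30000 pooled ones, on either strand. The longer NR4A site AAAGGTCA, which contains it, was at none of the 7 member summits and in 0.735% of thresholded windows. GC content was 36.6% at the promoter summit and 39.6% at the intronic one.

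cye-1 (WBGene00000871) encodes cyclin E, the partner of CDK-2 at the start of S phase, and lies on chromosome I from 6780799 to 6784397. It had the strongest promoter peak of the members and a second thresholded peak in an intron. The promoter summit lay 549 bp upstream with a pooled signal of 64.0, rank 345 of 30000. It ranked 1082 in replicate 1 (signal 23.1) and 181 in replicate 2 (signal 42.2), with summits within 6 bp of the pooled one. The gene pqn-21, which encodes a protein rich in glutamine and asparagine, is transcribed away from cye-1 across a gap of 647 bp, and its annotated 5′ end lay 99 bp from the summit. The peak is thus nearer to pqn-21 than to cye-1 and lies in the promoter windows of both.

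The intronic summit of cye-1 lay 955 bp downstream of the annotated 5′ end, with a pooled signal of 46.7 (rank 890). It ranked 1147 in replicate 1 (signal 22.5) and 902 in replicate 2 (signal 24.6), a ratio of 1.27 and the smallest of the 7 thresholded peaks. The summit was 49 bp from a tRNA gene (WBGene00022955) annotated within the cye-1 span, and the part of the tRNA gene in this peak was not tested. The other pooled intronic summit, 1667 bp downstream, had a signal of 5.79 and no match in replicate 1.

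The promoter summit of cye-1 was the richest in G and C of the members, at 57.4%, and 6.03% of thresholded summits were at least as high. The intronic summit had 43.6%. Within 50 bp of the promoter summit lay the E2F-like sequence TTTCGCGC and a GAGAGA repeat, found on either strand in 1.36% and 27.3% of thresholded windows, respectively. The intronic window held none of the fixed motifs.

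The kinases had only relaxed peaks. cdk-4 (WBGene00000406), whose product partners cyclin D, lies on the minus strand at chrX:13515856-13518911. Its strongest promoter summit lay 391 bp upstream with a pooled signal of 22.6 (rank 3752), short of the lowest thresholded signal. It ranked 1997 in replicate 1 (signal 17.2) and 5507 in replicate 2 (signal 9.50), so only replicate 1 placed it among its strongest 2720. The divergent gene F18H3.1 starts across a gap of 751 bp, and its 5′ end was 361 bp from the summit, nearer than that of cdk-4. The other pooled peaks of cdk-4, 6 in all, had signals from 4.72 to 8.26, and some lay inside F18H3.1 and pab-2, a gene for a poly(A)-binding protein.

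The window at the cdk-4 promoter summit is shown for comparison with the thresholded ones. It holds none of the fixed motifs and has a GC content of 48.5%.
cdk-4 promoter, plus strand, chrX:13519252-13519352: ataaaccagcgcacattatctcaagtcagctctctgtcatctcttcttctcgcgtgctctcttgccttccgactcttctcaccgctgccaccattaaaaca

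cdk-2 (WBGene00019362), the kinase of cyclin E, lies on chromosome I from 3410013 to 3416368. Its strongest promoter summit lay 117 bp upstream with a pooled signal of 18.3 (rank 5054). Replicate 2 ranked the peak 2628, with a signal of 14.9, and replicate 1 had no overlapping peak. A summit 733 bp upstream with a signal of 7.41 was matched in neither replicate, and an intronic one 3397 bp downstream had a signal of 8.30 and no match in replicate 1. The replicates thus differed on whether the promoter of cdk-2 held a peak at all. The window at the stronger summit had 48.5% GC and held the E2F-like sequence TTTCCCGC, present in 1.51% of thresholded and 0.693% of pooled windows, and GACGCA, present in 16.5% and 5.06%.

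lin-35 (WBGene00003020), which acts as the brake on E2F target genes, lies on chromosome I from 5807709 to 5815637. Its thresholded summit lay 164 bp upstream with a pooled signal of 54.6 (rank 567). It ranked 1751 in replicate 1 (signal 18.5) and 616 in replicate 2 (signal 28.5), with summits 22 and 23 bp from the pooled one. The summit lay in the 417 bp gap to vps-51, a divergent gene for a subunit of a vesicle tethering complex, and in the promoter windows of both genes. GC content was 44.6%, and none of the fixed motifs lay within 50 bp. Over all 7 thresholded summits, the core AGGTCA was at 1, as were the E2F-like TTTCGCGC and the GAGAGA repeat. GACGCA, the AP-1 site and the other fixed motifs were at none. Of all thresholded windows, 16.5% held GACGCA, 4.34% the AP-1 site, 1.51% TTTCCCGC, 0.735% AAAGGTCA and 0.588% TTTGGCGC. With shares this low, absence from 7 summits says little about the members.

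Within lin-35 the relaxed peaks were weak and not ranked alike. The pooled intronic summits lay 860, 2114 and 2639 bp downstream with signals of 12.1, 6.09 and 7.38. The last ranked 3467 in replicate 1 and had no match in replicate 2, and the second ranked 5590 in replicate 2 and had no match in replicate 1. The gene C32F10.4 lies inside lin-35 on the other strand, and its 5′ end was nearer to these last summits than that of lin-35, at 179 and 346 bp.

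**Figure D2:**
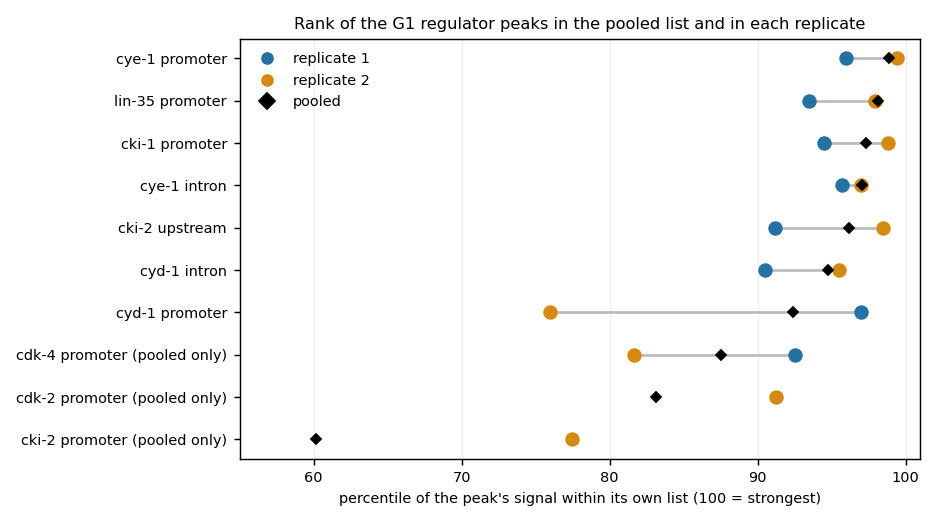
Percentile of each gene's peak within its list (horizontal axis, 100 for the strongest) for the thresholded peaks and for the strongest promoter peak of genes without one; circles are the replicates and diamonds the pooled list, and a missing circle means that no overlapping peak was listed. The cyd-1 promoter spreads from 76.0 in replicate 2 to 97.0 in replicate 1, whereas both cye-1 peaks stay above 95 in each replicate.

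By their strongest promoter peak in the pooled list, the members followed the order cye-1, lin-35, cki-1, cyd-1, cdk-4, cdk-2 and cki-2. Among the genes with a pooled promoter peak, 8184 in all, they stood at ranks 346, 564, 774, 1834, 2708, 3317 and 5374. In replicate 1 the order was cyd-1, cye-1, cki-1, lin-35 and cdk-4, with nothing for cdk-2 and cki-2. In replicate 2 it was cye-1, cki-1, lin-35, cdk-2, cdk-4, cki-2 and cyd-1. cye-1, cki-1 and lin-35 were within the strongest 2720 peaks of both replicates. How many of all thresholded peaks were so is not given. cye-1 stood ahead of cki-1 and lin-35 in both replicates, while cki-1 and lin-35 changed places between the pooled list and the replicates. cyd-1, cdk-4 and cdk-2 were within that number in 1 replicate each, so their places relative to each other are not larger than the difference between replicates.

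**Figure D3:**
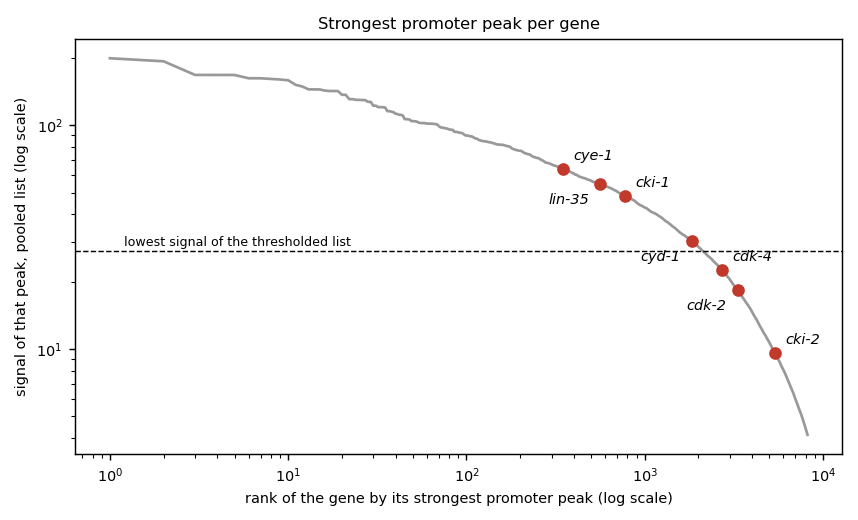
Signal of the strongest promoter peak of each gene in the pooled list against the gene's rank (both axes logarithmic); the grey line covers the 8184 genes that have one, the red points are the members and the dashed line is the lowest thresholded signal, 27.5. 4 members lie above the line, and cdk-4, cdk-2 and cki-2 lie below it at 22.6, 18.3 and 9.56.

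The genes most like cye-1, the member with the strongest promoter peak, were found by the percentile ranks of promoter peaks in the pooled and both replicate lists. pqn-21 was at a distance of 0 because it has the same peak. Next came Y48B6A.1 and rpl-43, a gene for a protein of the large ribosomal subunit. They share a peak of signal 62.2 and were both at a distance of 0.423 percentile points over the 3 lists. vha-12, on chromosome X, was almost as near, at 0.426, with a signal of 60.9. Likeness over so few lists is a description of rank only.

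Other cell cycle genes were taken from a list of 49 written by function, with earlier results of these data known. The interval below is for counting of genes only. Thresholded promoter peaks were at 21 of them (42.9%, Wilson 95% interval 30.0 to 56.7%), with a median signal of 48.6, beside 10.5% and 41.9 over all genes. In the pooled list 38 had a promoter peak (77.6%, beside 41.0% of all genes), with a median signal of 32.7 against 14.2 over all genes that had one. The 21 genes rest on 20 peaks, and the peaks of 13 of them also lie in another gene's promoter window. Of all genes with a thresholded promoter peak, 51.6% share their strongest one, as do cye-1 and lin-35 among the members.

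The factors that act with LIN-35 had thresholded peaks at 5 of 8 promoters, of which 4 were the strongest of the 21 and that of dpl-1 was the weakest. efl-1, an E2F factor, had a signal of 81.6 (rank 161), with ranks of 303 in replicate 1 and 98 in replicate 2. dpl-1, its DP partner, had 31.7 (rank 2105) and ranked 1377 and 4568. Of the subunits of the complex shared with LIN-35, lin-54 had a signal of 122.3 (rank 30), lin-53 one of 83.1 and lin-9 one of 83.0. The lin-54 peak is shared with rpl-12, a ribosomal protein gene, the lin-53 peak with nra-2 and the efl-1 peak with fbxa-90. lin-54, lin-53 and efl-1 ranked higher in both replicates than any promoter peak of the 7 regulators. lin-9 did so in replicate 1, at 124, and ranked 299 in replicate 2 against 181 for cye-1. lin-52 and lin-37 had relaxed promoter peaks only, and efl-2 had none.

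Genes that degrade or restrain G1 proteins had thresholded promoter peaks at 6 of 10, led by lin-23, the F-box subunit of an SCF ubiquitin ligase, with 59.6 (rank 423). The lin-23 summit lay 979 bp upstream, near the outer edge of the promoter window. This group also holds cdc-14, a phosphatase, with 40.7. Genes of replication licensing and S phase had them at 6 of 17. The helicase genes mcm-3 and mcm-7 had signals of 55.3 and 48.6, pcn-1, for the sliding clamp PCNA, had 51.5, and orc-5, for a subunit of the origin recognition complex, had 47.0. Mitotic cyclins and kinases had them at 4 of 10. They were cdk-7, of the CDK-activating kinase, with 54.6, wee-1.3, a kinase that inhibits CDK-1, with 51.0, cyb-3 with 49.1, and cyb-1 with 47.0. The cyb-1 peak is that of orc-5, and the peaks of cdc-14, mcm-3, mcm-7 and cyb-3 also lie in other genes' promoter windows. None of the 4 CDC-25 phosphatase genes, whose products activate CDKs, had a promoter peak in the pooled list, in which 41.0% of all genes have one. With only 4 genes, this absence says little about the group.

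**Figure D4:**
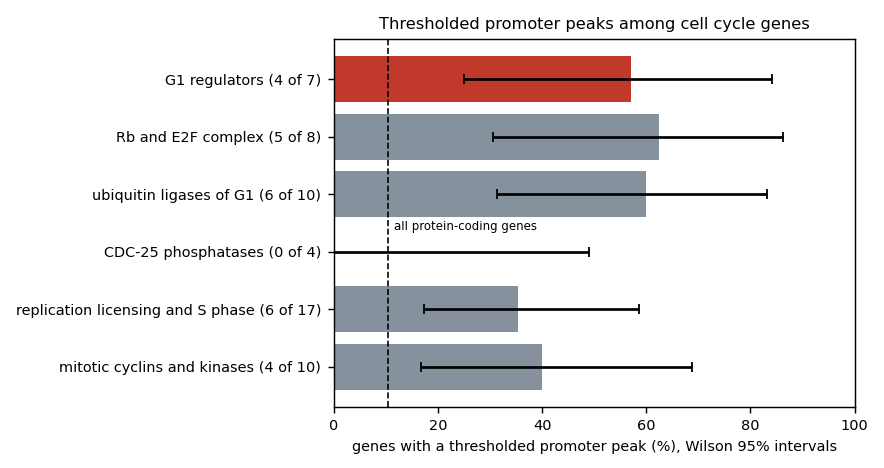
Share of genes with a thresholded promoter peak in each group (bars, percent; whiskers, Wilson 95% intervals for counting of genes) with the share of all protein-coding genes as a dashed line at 10.5%. The members stand at 57.1% with an interval from 25.0 to 84.2%, which overlaps those of all the other groups.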

How the data were processed

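Per the deposited text listings, the authors called relaxed peaks in build ce11 on each replicate and on both together, against a control alignment, and kept a list that passed a threshold of irreproducible discovery rate. No source used here names the aligner or the peak caller; the ce10 lists and the control library were not analysed here. The deposited signal was used for ranks, because the deposited −log10 q-value stood at its maximum of 3.91 in all 2720 thresholded and 4093 pooled peaks. Mitochondrial peaks, 28 of 26801 in replicate 1, were left out. Depth is unknown.

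Genes came from Ensembl release 115 (WBcel235, the assembly of ce11) and sequence from the RefSeq copy of that assembly, whose chromosomes hold every peak used. A pooled peak was matched to the overlapping replicate peak with the nearest summit, at 1 bp or more. 8 fixed motifs were searched on both strands within 50 bp of summits: the NR4A site AAAGGTCA and the core AGGTCA inside it, the E2F-like TTTCCCGC and then TTTGGCGC and also TTTCGCGC, the repeat GAGAGA, the 6-mer GACGCA and the AP-1 site (TGACTCA or TGAGTCA). No test was run, because there is 1 group. The lookup of summits in the gene regions was checked with planted summits, which does not check how the regions were defined. The members and lists were chosen with earlier results of these data known. The genes named are the 7 members, neighbours that hold their peaks or start nearer to them, efl-1, dpl-1, the 12 others of the wider list with the strongest thresholded promoter peaks, and the 3 most like the strongest member; others were named after their values were seen. Alternatives changed the window, the overlap rule, the 5′ end, the list and the replicate. Calculations used Python 3.11.15, numpy 2.4.6, pandas 2.3.3, scipy 1.17.1 and matplotlib 3.10.9.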

Additional observations from a re-analysis of the deposited data

How the results depend on the processing

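The 4 members with a thresholded promoter peak became 2 (cyd-1 and lin-35) when the window spanned only 500 bp before and 100 bp after the start, where 8.45% of all genes had one, and 7 with all pooled peaks (41.0% of all genes). With the strongest 2720 peaks of replicate 2 alone (without replicate 1) there were 4, with cdk-2 in place of cyd-1 (9.91% of all genes), and with those of replicate 1 alone 5, with cdk-4 added (9.99%). Members with a thresholded peak in any region, 5, ran from 4 with the stronger part of the list (12.4% of all genes) to 7 with all pooled peaks (68.4%). The wider list's 21 became 38 with all pooled peaks and otherwise ran from 16 in the stronger part of the list (6.07% of all genes) to 26 with a promoter window reaching farther upstream (13.5%). With one replicate left out, the percentile of the promoter peak ran from 76.0 to 97.0 for cyd-1, 96.0 to 99.4 for cye-1 and 93.5 to 97.95 for lin-35. It was 91.2 for cdk-2 and 77.4 for cki-2, where replicate 1 had no peak. The intronic peaks ran from 90.5 to 95.5 for cyd-1 and from 95.7 to 97.0 for cye-1. Within 100 bp of summits GAGAGA was at 2 member summits in place of 1 and GACGCA at 2 in place of 0, beside 1143 and 652 of the 2720 thresholded summits. Asking that 50% of the pooled peak overlap, chosen after seeing the data, left 14 of the 20 peaks matched in both replicates. The cause of these changes was not tested. No paired analysis was possible because there is 1 group.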

Other observations

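The strongest thresholded peak near cdk-4 lay outside the regions examined, 1264 bp past the 3′ end of the gene in intergenic sequence, at chrX:13514434-13514749. Its pooled signal was 52.3 (rank 665), above the 22.6 of the strongest cdk-4 promoter peak, and it ranked 2111 in replicate 1 and 336 in replicate 2, within the strongest 2720 of both. A second thresholded peak lay 3880 bp past the 3′ end, with a signal of 40.9, inside H06A10.3 and a further annotated noncoding gene. The nearest annotated protein-coding 5′ end to both was that of col-185, a cuticle collagen gene, at 3495 and 879 bp. The share of all genes with a thresholded peak at such distances past the 3′ end is not given. Which gene these peaks concern was not tested.

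Of the 7 thresholded peaks of the members, 6 ranked higher in replicate 2 than in replicate 1, and the cyd-1 promoter peak alone ranked higher in replicate 1. Of all thresholded peaks matched in both, 50.2% ranked higher in replicate 2. The 4 member peaks on chromosome II had a GC content from 34.7 to 39.6% at the summit, and the 3 on chromosome I from 43.6 to 57.4%. The mean over all 2720 thresholded summits was 45.3%. Values for all thresholded summits of each chromosome are not given, so no difference between the chromosomes is shown.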
